A study of Rattus norvegicus with 14 samples.

Results

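The genes described here are 10 genes that mark T lymphocytes and cytotoxic lymphocytes, measured at 4 postnatal ages in the epididymis of the rat, where spermatozoa mature. They were chosen by symbol (Cd3e, Cd3d, Cd3g, Cd8a, Cd2, Cd7, Gzma, Prf1, Nkg7 and Klrd1) in the annotation of the array, and all 10 had a transcript cluster of their own, out of 18166 genes with 1 cluster each. Each sample was a pool of whole epididymides of Sprague-Dawley rats, and no treatment is named. The ages were day 7 (3 pools), day 18 (4 pools), day 28 (4 pools) and day 60 (3 pools). Rats of day 7 and day 18 were kept with lactating mothers, and rats of day 28 and day 60 had free access to food and water. Each pool was hybridised to its own Affymetrix RatGene 2.0 ST array, and values are log2 signals, so a difference of 1 is a 2-fold change. The number of animals in a pool is not given in the sources used here, so the p-values measure the spread between these pools.

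T lymphocytes recognise peptides through the T cell receptor, whose signal is carried into the cell by the CD3 chains. CD8 T cells and natural killer cells kill target cells by releasing perforin, which opens the membrane, and granzymes, proteases that enter through it. In rodents the epididymal epithelium and the tissue around it are known to hold lymphocytes beside a dense network of mononuclear phagocytes, and after puberty the duct carries spermatozoa, whose antigens appear after central tolerance has been set up.

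Whole tissue was measured, so fewer cells of a type and less RNA per cell cannot be told apart. Signals of 1344 olfactory and vomeronasal receptor genes, chosen as genes with little known expression outside the nose, had a 95th percentile of 4.92, which serves as a background level here. Over all 14 pools 8 of the 10 lymphocyte genes had a mean above it, and Cd3d and Cd3g did not. Median signals of the arrays ran from 5.21 to 5.42, and pools of the same age correlated at 0.989 to 0.995 across genes, which are not independent replicates. Of the 9 measured epididymal epithelium genes, 6 averaged at or under the background level at day 7 and 0 at day 60. Of these 9 genes 7 rose at day 18, all 9 at day 28 and 4 at day 60, and 0 fell. Adam7, a membrane protease of the epididymal epithelium, averaged 13.22 at day 60 against 4.53 at day 7.

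All 10 lymphocyte genes rose between day 7 and day 18, and in all 10 the lowest pool of day 18 lay above the highest pool of day 7. The largest rises were those of Gzma, granzyme A, which was 4.31-fold higher at day 18, and of Cd7, a surface protein of T and natural killer cells, which was 4.04-fold higher. Nkg7, a membrane protein of cytotoxic granules, had the smallest rise, 1.49-fold. The median log2 difference of the 10 genes was 0.83, against 0.01 over all genes. By limma's moderated test with Benjamini-Hochberg adjustment over all genes, at a threshold of 0.05, 17.4% of all genes were called higher at this step and 20.7% lower. Across all genes 21% had every day 18 pool above every day 7 pool. The joint test over neighbouring ages called all 10 lymphocyte genes, against 60.4% of all genes. The count of lymphocyte genes called higher at day 18 against day 7 was 10 in each of the 14 fits that left out a single pool.

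**Figure D1:**
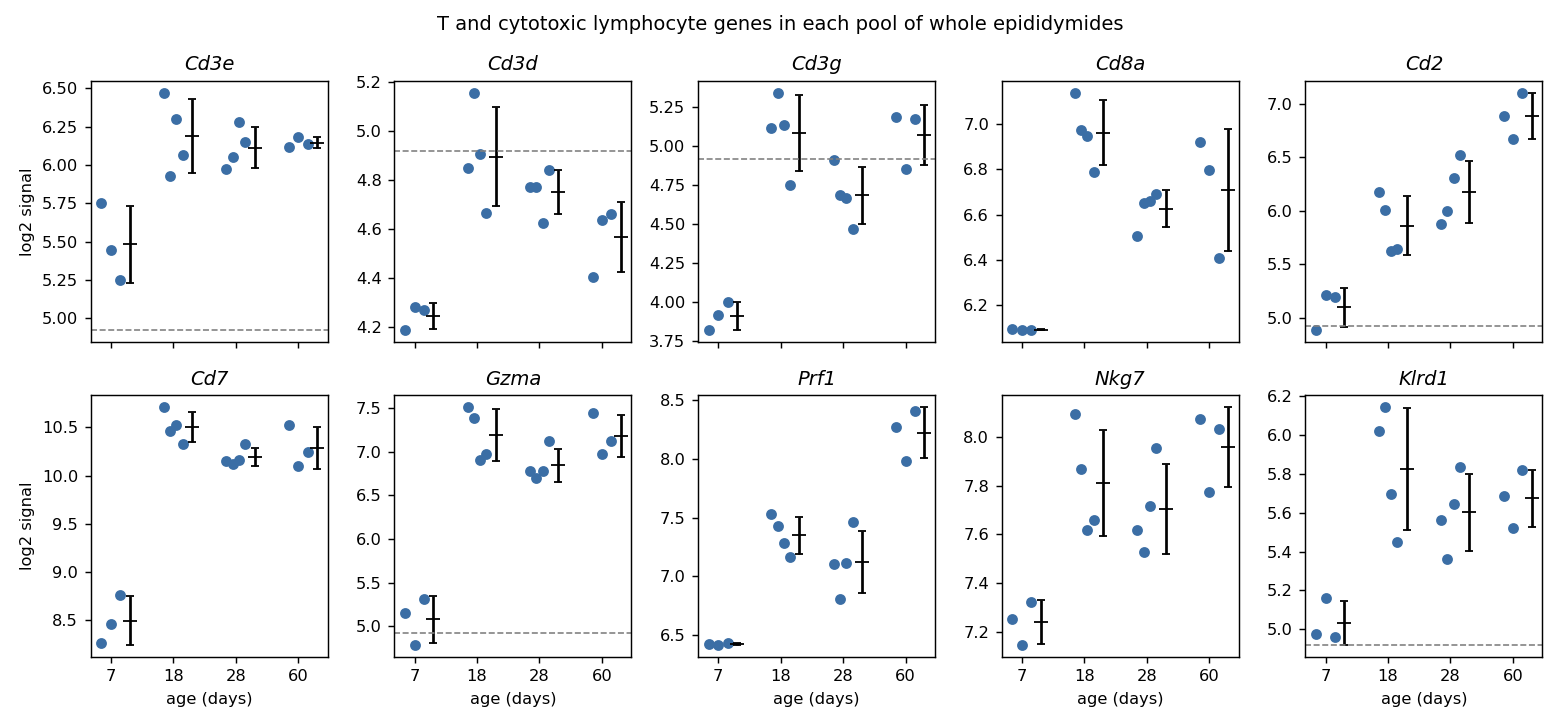
Log2 signal (vertical axis, scaled separately for each gene) of the 10 lymphocyte genes in each pool against age in days. Blue points are single pools, black bars give the mean ± SD of the 3 or 4 pools of an age, and the dashed line is the background level of 4.92 where it falls in the panel. In all 10 panels the day 7 pools lie below the pools of every later age.

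The 3 CD3 chains were described first, because they are the part of the receptor that every T cell carries. Cd3e, the epsilon chain, had log2 signals of 5.75, 5.44 and 5.25 in the day 7 pools, 6.47, 5.93, 6.30 and 6.07 in the day 18 pools, 5.97, 6.05, 6.28 and 6.15 in the day 28 pools, and 6.12, 6.18 and 6.13 in the day 60 pools. Its day 7 pools were low and its later ages overlapped each other. At day 18 it averaged 6.19 ± 0.24 against 5.48 ± 0.25 at day 7 (mean ± SD, 4 and 3 pools), a difference of 0.71 ± 0.13 (SE, limma adjusted p = 0.000615). Cd3d, the delta chain, had log2 signals of 4.19, 4.28 and 4.27 at day 7, 4.85, 5.15, 4.91 and 4.66 at day 18, 4.77, 4.77, 4.62 and 4.84 at day 28, and 4.40, 4.64 and 4.66 at day 60. Only 1 of these 14 pools, at day 18, exceeded the background level, so the size of its difference of 0.65 ± 0.11 between day 18 and day 7 is uncertain (limma adjusted p = 0.000182). For Cd3g, the gamma chain, the log2 signals were 3.82, 3.92 and 4.00 at day 7, 5.12, 5.34, 5.13 and 4.75 at day 18, 4.91, 4.69, 4.67 and 4.47 at day 28, and 5.19, 4.85 and 5.18 at day 60. All day 7 pools were under the background level, and the difference of 1.18 ± 0.14 at day 18 is likewise uncertain in size (limma adjusted p = 6.46e-06).

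The genes Cd3g, Cd3d and Cd3e follow each other on chromosome 8 with no other protein-coding gene between them in RefSeq (GRCr8). Their promoters, 250 bases before to 50 bases after the transcript start, are shown because all 3 neighbours rose at day 18. Each is written 5′ to 3′ along the gene, and capitals mark matches to AGGAAG, a letter run of the kind bound by ETS factors, on either strand. The windows are chr8:54211721-54212020 (minus strand) for Cd3e, chr8:54185269-54185568 (plus strand) for Cd3d and chr8:54183869-54184168 (minus strand) for Cd3g.
Cd3e: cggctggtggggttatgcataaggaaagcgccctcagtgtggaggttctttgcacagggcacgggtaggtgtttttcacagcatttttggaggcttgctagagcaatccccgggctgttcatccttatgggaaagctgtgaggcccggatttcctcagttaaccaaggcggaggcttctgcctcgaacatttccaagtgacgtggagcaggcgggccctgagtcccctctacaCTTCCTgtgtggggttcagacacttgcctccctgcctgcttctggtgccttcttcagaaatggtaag
Cd3d: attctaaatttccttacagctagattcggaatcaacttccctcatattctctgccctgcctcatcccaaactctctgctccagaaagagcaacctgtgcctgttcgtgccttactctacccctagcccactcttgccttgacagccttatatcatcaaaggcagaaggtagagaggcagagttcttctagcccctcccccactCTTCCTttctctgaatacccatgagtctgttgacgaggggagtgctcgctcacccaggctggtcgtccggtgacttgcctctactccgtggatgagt
Cd3g: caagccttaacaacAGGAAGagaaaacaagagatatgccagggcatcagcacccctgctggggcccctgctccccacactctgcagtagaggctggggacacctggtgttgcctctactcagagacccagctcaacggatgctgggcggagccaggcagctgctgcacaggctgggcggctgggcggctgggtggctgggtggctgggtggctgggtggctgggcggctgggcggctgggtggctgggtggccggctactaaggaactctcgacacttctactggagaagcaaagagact
The match began at position -17 from the transcript start in Cd3e, at -47 in Cd3d and at -236 in Cd3g. Of the 27457 RefSeq promoters of this length 34.3% hold the same letters. The shorter core GGAA, which lies inside that motif, was in all 8 of the 10 lymphocyte genes whose promoters were matched in the table, as it was in 95.8% of all promoters.

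Genes of other surface proteins of T cells followed the same step at day 18. Cd8a, the alpha chain of the co-receptor that reads class I antigen, had log2 signals of 6.10, 6.09 and 6.09 at day 7, 7.13, 6.97, 6.95 and 6.79 at day 18, 6.50, 6.65, 6.66 and 6.69 at day 28, and 6.92, 6.80 and 6.41 at day 60. The day 18 pools were its highest group and stood clear of the day 28 pools, while the day 60 pools ran from below the day 28 pools into the range of day 18. At day 18 it averaged 6.96 ± 0.14 against 6.09 ± 0.0024 at day 7, a difference of 0.87 ± 0.11 (limma adjusted p = 2.02e-05). Cd7 had log2 signals of 8.26, 8.45 and 8.76 at day 7, 10.71, 10.46, 10.52 and 10.33 at day 18, 10.16, 10.12, 10.16 and 10.33 at day 28, and 10.53, 10.10 and 10.25 at day 60. Every later pool lay far above the day 7 pools. Between day 18 and day 7 the difference was 2.01 ± 0.13 (limma adjusted p = 1.7e-08), with means of 10.50 ± 0.16 and 8.49 ± 0.25. Over the 14 pools Cd7 averaged 9.94, a level that 96% of all genes did not exceed. The same share was 71.1% for Nkg7, the next highest of the 10, and 43.2% for Cd3e. Which cells gave the Cd7 signal was not tested.

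Cd2, the adhesion receptor that T cells and natural killer cells use to bind other cells, had its highest level at day 60. Its log2 signals were 4.88, 5.21 and 5.19 at day 7, 6.17, 6.01, 5.62 and 5.64 at day 18, 5.88, 5.99, 6.31 and 6.52 at day 28, and 6.88, 6.67 and 7.10 at day 60. The day 7 pools were lowest and the day 60 pools highest, and neither overlapped with the ages between, which overlapped each other. At day 18 it averaged 5.86 ± 0.28 against 5.10 ± 0.19 at day 7, a difference of 0.77 ± 0.17 (limma adjusted p = 0.00251). Only 2 of its 3 day 7 pools exceeded the background level, so the sizes of its differences from day 7 are uncertain.

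Gzma encodes a granule protease that cleaves proteins inside target cells, and its rise was the largest of the 10. Its log2 signals were 5.15, 4.79 and 5.31 in the day 7 pools, 7.51, 7.38, 6.90 and 6.97 in the day 18 pools, 6.78, 6.70, 6.77 and 7.12 in the day 28 pools, and 7.44, 6.97 and 7.12 in the day 60 pools. The 3 later ages overlapped each other and stood clear of day 7, where 1 of 3 pools was under the background level. The sizes of its differences from day 7 are therefore uncertain. At day 18 Gzma averaged 7.19 ± 0.30 against 5.08 ± 0.27 at day 7, a difference of 2.11 ± 0.17 (limma adjusted p = 1.74e-07). Prf1, perforin, had log2 signals of 6.43, 6.42 and 6.44 at day 7, 7.53, 7.43, 7.28 and 7.17 at day 18, 7.11, 6.81, 7.11 and 7.46 at day 28, and 8.27, 7.98 and 8.40 at day 60. Its day 60 pools stood above all pools of the earlier ages. At day 18 it averaged 7.35 ± 0.16 against 6.43 ± 0.0086 at day 7, a difference of 0.92 ± 0.14 (limma adjusted p = 7.89e-05).

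The remaining cytotoxic genes, Nkg7 and Klrd1, had smaller differences at day 18 than Gzma and Prf1. The gaps between genes were not tested, and that between Klrd1 and Prf1 was small beside their SE. Nkg7 had log2 signals of 7.25, 7.15 and 7.32 at day 7, 8.09, 7.87, 7.62 and 7.66 at day 18, 7.62, 7.53, 7.72 and 7.95 at day 28, and 8.07, 7.77 and 8.03 at day 60. Its 3 later ages overlapped each other, and the difference between day 18 and day 7 was 0.57 ± 0.13 (limma adjusted p = 0.00231). Klrd1, also called CD94, pairs with NKG2 receptors on natural killer and some CD8 T cells. Its log2 signals were 4.98, 5.16 and 4.96 at day 7, 6.02, 6.14, 5.70 and 5.45 at day 18, 5.56, 5.36, 5.65 and 5.84 at day 28, and 5.68, 5.52 and 5.82 at day 60. Again the later ages overlapped each other, with a difference of 0.79 ± 0.15 between day 18 and day 7 (limma adjusted p = 0.000683). The day 7 pools of Klrd1 lay just above the background level of 4.92, so the size of this difference is uncertain. Klrc1, which encodes its partner NKG2A, averaged 5.70 at day 18 against 4.91 at day 7 (limma adjusted p = 0.00216). That day 7 mean was just under the background level, so the size of the rise is uncertain. Of the related genes Klrc3 averaged 5.46 at day 18 against 4.32 at day 7, and Klrc2 4.16 against 4.05. The day 7 mean of Klrc3 and both means of Klrc2 were under the background level, so the size of the Klrc3 difference is uncertain too.

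Promoters of Cd2, Gzma and Prf1 are shown because Gzma had the largest rise and because Cd2 and Prf1 were higher at day 60 than at day 28 with no overlap of their pools. Capitals mark matches on either strand to TGTGGT, the core letters of RUNX factors, and to AGGAAG. The GRCr8 windows are chr2:191412610-191412909 (minus strand) for Cd2, chr2:46485647-46485946 (minus strand) for Gzma and chr20:29788790-29789089 (plus strand) for Prf1.
Cd2: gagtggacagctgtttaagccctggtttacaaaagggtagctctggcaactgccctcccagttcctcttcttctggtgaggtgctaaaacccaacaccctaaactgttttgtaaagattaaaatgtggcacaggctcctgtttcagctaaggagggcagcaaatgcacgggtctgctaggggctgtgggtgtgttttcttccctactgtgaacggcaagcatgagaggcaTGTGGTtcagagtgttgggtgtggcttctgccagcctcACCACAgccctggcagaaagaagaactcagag
Gzma: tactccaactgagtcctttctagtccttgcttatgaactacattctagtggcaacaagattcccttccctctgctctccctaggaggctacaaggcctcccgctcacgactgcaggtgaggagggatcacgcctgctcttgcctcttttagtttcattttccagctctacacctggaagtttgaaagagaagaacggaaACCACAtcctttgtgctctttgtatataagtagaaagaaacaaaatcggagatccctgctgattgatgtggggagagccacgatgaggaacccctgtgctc
Prf1: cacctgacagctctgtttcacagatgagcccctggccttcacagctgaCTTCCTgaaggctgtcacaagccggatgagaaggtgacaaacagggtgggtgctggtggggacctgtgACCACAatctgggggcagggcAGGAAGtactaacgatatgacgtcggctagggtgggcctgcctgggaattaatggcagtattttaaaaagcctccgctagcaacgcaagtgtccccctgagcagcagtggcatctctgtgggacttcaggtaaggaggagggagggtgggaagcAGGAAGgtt
In Cd2 the RUNX letters began at positions -20 and 19, in Gzma at -51 and in Prf1 at -134. They were in 4 of the 8 matched promoters (Cd2, Gzma, Prf1 and Nkg7) and in 16.9% of all promoters of this length. AGGAAG was in 5 of the 8 (Cd3e, Cd3d, Cd3g, Prf1 and Nkg7), in Prf1 at -202, -113 and 42, and no match of one motif overlapped a match of the other in the printed windows. The E-box CANNTG was in 6 of the 8 and in 71.6% of all promoters, while AGATAA and TATAAA were in 0 of the 8 and in 11.3% and 14.3% of all promoters. The promoters of Cd7 and Klrd1 were not matched. These matches describe the letters only.

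The pools of an age differed in their lymphocyte signal. At day 18 the mean log2 signal of the 10 was 6.96 in replicate 1, 6.87 in replicate 2, 6.69 in replicate 3 and 6.55 in replicate 4, and replicate 4 lay below the mean of its age for all 10 genes. Adipoq, the adipocyte hormone adiponectin, was 6.74, 7.66, 8.26 and 8.75 in the same 4 pools. The pool with the lowest Adipoq signal had the highest lymphocyte mean, and the part of fat tissue in these values was not tested. At day 28 and at day 60 the pool with the highest lymphocyte mean (replicate 4 and replicate 1) was also the pool with the highest Adipoq signal, so the order seen at day 18 did not hold there. Of the 45 pairs of the 10 genes 39 had a correlation above 0 in their deviations from the age means over the 14 pools, with a median of 0.32 and a range of -0.34 (Cd3e and Cd3d) to 0.90 (Gzma and Nkg7). The genes of a pair share their arrays, and these correlations are descriptions. At the other ages the mean of the 10 genes ran from 5.68 to 5.76 at day 7, from 6.47 to 6.74 at day 28 and from 6.75 to 6.95 at day 60.

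Between day 18 and day 28 no lymphocyte gene rose, and 2 of the 10, Cd8a and Cd3g, fell. The median log2 difference of the 10 was -0.23, against -0.02 over all genes, and 9 of the 10 differences were below 0. Across all genes 10.5% were called higher at this step and 14.3% lower. Cd8a averaged 6.63 ± 0.08 at day 28 against 6.96 ± 0.14 at day 18, a difference of -0.33 ± 0.10 (limma adjusted p = 0.0292). Cd3g averaged 4.69 ± 0.18 at day 28, under the background level, against 5.09 ± 0.24 at day 18, a difference of -0.40 ± 0.13 (limma adjusted p = 0.0299), and its groups overlapped. Neither call held in every fit that left out a pool. The Cd8a call ended without replicate 1, 2 or 3 of day 18 or replicate 1 or 3 of day 28, with adjusted p up to 0.0913. The Cd3g call ended without replicate 1, 2 or 3 of day 18 or replicate 2, 3 or 4 of day 28, with adjusted p up to 0.0977. For Cd7, as for Cd8a, every day 28 pool lay below every day 18 pool, which held for 15.6% of all genes. In Cd7 the nearest pools were almost tied, at 10.3253 (replicate 4 of day 28) and 10.326 (replicate 4 of day 18). Cd7 had a difference of -0.32 ± 0.12 that missed the threshold (limma adjusted p = 0.0689) and passed it without replicate 3 of day 7 (adjusted p = 0.0452). Cd2 was the gene with the difference above 0, 0.31 ± 0.16, which did not pass (limma adjusted p = 0.175).

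Between day 28 and day 60 the perforin gene Prf1 and Cd2 rose. Prf1 averaged 8.22 ± 0.22 at day 60 against 7.12 ± 0.27 at day 28 (3 and 4 pools), 2.14-fold higher (difference 1.09 ± 0.14, limma adjusted p = 4.99e-05). Cd2 averaged 6.89 ± 0.21 at day 60 against 6.17 ± 0.29 at day 28, 1.64-fold higher (difference 0.71 ± 0.17, limma adjusted p = 0.00754). For both genes, and for 17.1% of all genes, the lowest day 60 pool lay above the highest day 28 pool. Cd3g was called higher too, with a difference of 0.39 ± 0.14 (limma adjusted p = 0.0499). That call ended without any 1 of 10 of the 14 pools, namely replicates 1, 2 and 3 of day 7, replicates 1 and 3 of day 18, replicates 2, 3 and 4 of day 28 and replicates 1 and 3 of day 60, with adjusted p up to 0.165. It ended with the replicate block as well (adjusted p = 0.0920). In all, 3 of the 10 were called higher and 0 lower, with a median log2 difference of 0.18 against -0.02 over all genes. Across all genes 13.8% were called higher at this step and 11.2% lower. The other 7 genes had differences of -0.18 (Cd3d) to 0.33 (Gzma) and did not pass.

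Over the whole span all 10 genes were higher at day 60 than at day 7, with no overlap of their pools. Gzma was 4.26-fold higher (log2 difference 2.09 ± 0.18, limma adjusted p = 1.65e-07), Cd7 3.48-fold (1.80 ± 0.14, limma adjusted p = 4.07e-08) and Cd2 3.46-fold (1.79 ± 0.18, limma adjusted p = 1.02e-06). Prf1 was also 3.46-fold higher (1.79 ± 0.15, limma adjusted p = 8.59e-08). Cd3d had the smallest difference, 0.32 ± 0.11 (limma adjusted p = 0.0289), and its call ended without replicate 1 or 3 of day 7 or replicate 2 or 3 of day 60 (adjusted p of 0.0536 to 0.103). The remaining 5 genes differed by 0.62 (Cd8a) to 1.16 (Cd3g). Across all genes 21.7% were called higher at day 60 than at day 7 and 27.6% lower, and 25.8% had every day 60 pool above every day 7 pool. The median log2 difference of the 10 was 0.94, against -0.03 over all genes. This comparison shares its day 7 pools with that of day 18 against day 7, so the 2 counts are not separate evidence.

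**Figure D2:**
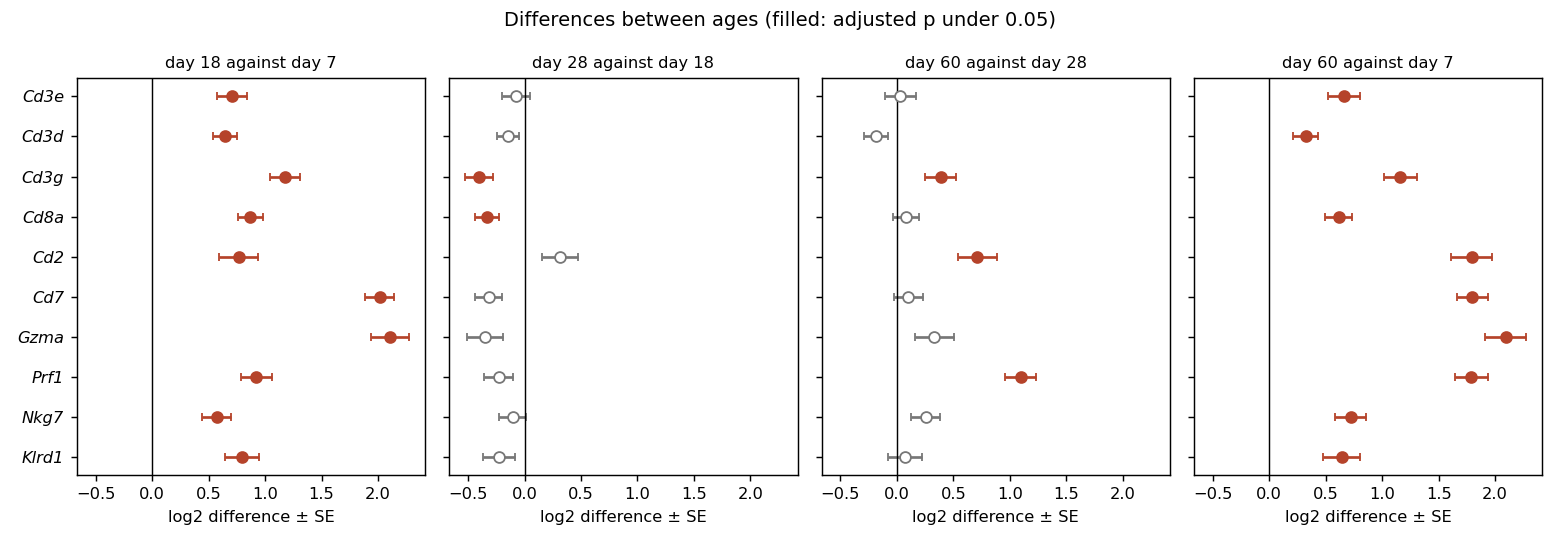
Log2 difference between ages (horizontal axis, ± SE of the limma fit) for each of the 10 lymphocyte genes, in 1 panel per comparison. Filled red points passed an adjusted p of 0.05 and open grey points did not; all 10 are filled for day 18 and for day 60 against day 7, 2 for day 28 against day 18 and 3 for day 60 against day 28.

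In the order of their mean levels, day 7 was lowest for all 10 genes and did not overlap with the next age in any of them, which held for 12.5% of all genes. The highest mean was at day 18 for 7 genes (Cd3e, Cd3d, Cd3g, Cd8a, Cd7, Gzma and Klrd1) and at day 60 for 3 (Cd2, Prf1 and Nkg7), against 21.1% and 26.1% of all genes. Only for Cd2 and Prf1 did the highest age stand clear of the age next to it in level, 2 of 10 against 33.1% of all genes. For the other 8 the 2 highest ages overlapped in their pools, and for all 10 the ages ranked 2 and 3 by their mean overlapped, as they did for 77.1% of all genes.

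Since the number of all leukocytes in the tissue may differ between ages, the same fit was repeated after the log2 signal of Ptprc, the CD45 gene that all leukocytes express, had been subtracted from every gene in each array. Ptprc had log2 signals of 6.21, 6.35 and 6.41 at day 7, 7.61, 7.60, 7.36 and 7.29 at day 18, 7.47, 7.26, 7.49 and 7.43 at day 28, and 7.77, 7.83 and 7.88 at day 60. It was 1.14 ± 0.10 higher at day 18 than at day 7 (limma adjusted p = 2.3e-07). Relative to Ptprc, Gzma and Cd7 rose at day 18 by a further 0.97 ± 0.16 (limma adjusted p = 1.57e-05) and 0.87 ± 0.13 (limma adjusted p = 6.91e-06), whereas 1.39% of all genes were higher on this scale and 95.8% lower. Cd3e, Cd3d, Cd2, Nkg7 and Klrd1 were called lower relative to Ptprc, by 0.35 to 0.57. Those 5 calls depended on the leukocyte gene chosen: relative to Cd53 or to Laptm5, 2 other genes of all leukocytes, 0 of the 10 were called lower at day 18, and Cd3g joined Gzma and Cd7 among those called higher. Cd53 averaged 8.97 at day 18 against 8.27 at day 7, and Laptm5 8.92 against 8.23, smaller rises than that of Ptprc. Laptm5 is also among the genes whose pattern was most like the mean of the 10, given below. Of all genes 2.58% were higher and 83.4% lower relative to Cd53 at this step, and 2.94% and 84.4% relative to Laptm5. Probes differ in how far signal follows RNA, so a difference in change between genes on this scale need not be the same in RNA.

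Between day 28 and day 60 Prf1 rose relative to Ptprc, by 0.68 ± 0.13 (limma adjusted p = 0.00047), and it did so relative to Cd53 (0.89, adjusted p = 0.000248) and Laptm5 (0.93, adjusted p = 4.82e-05). Across all genes 3.08% were called higher relative to Ptprc at this step and 63.5% lower. The difference of Cd2 did not pass relative to Ptprc (0.30 ± 0.14, limma adjusted p = 0.0738) and passed relative to Cd53 (0.51, adjusted p = 0.0276) and Laptm5 (0.55, adjusted p = 0.0101). Lower calls relative to Ptprc were made for 5 genes at this step, and 0 of the 10 were called lower relative to Cd53 or Laptm5, when 16.5% and 19.7% of all genes were. Between day 18 and day 28 0 of the 10 were called in either direction relative to Ptprc, when 8.53% of all genes were called higher and 6.65% lower. For day 60 against day 7, 1 of the 10, Gzma, was called higher relative to Ptprc (0.59 ± 0.17, limma adjusted p = 0.00278) and 6 lower, against 2.86% and 94.3% of all genes. The lower calls were 1 relative to Cd53 and 0 relative to Laptm5, when 82.7% and 75.6% of all genes were called lower.

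**Figure D3:**
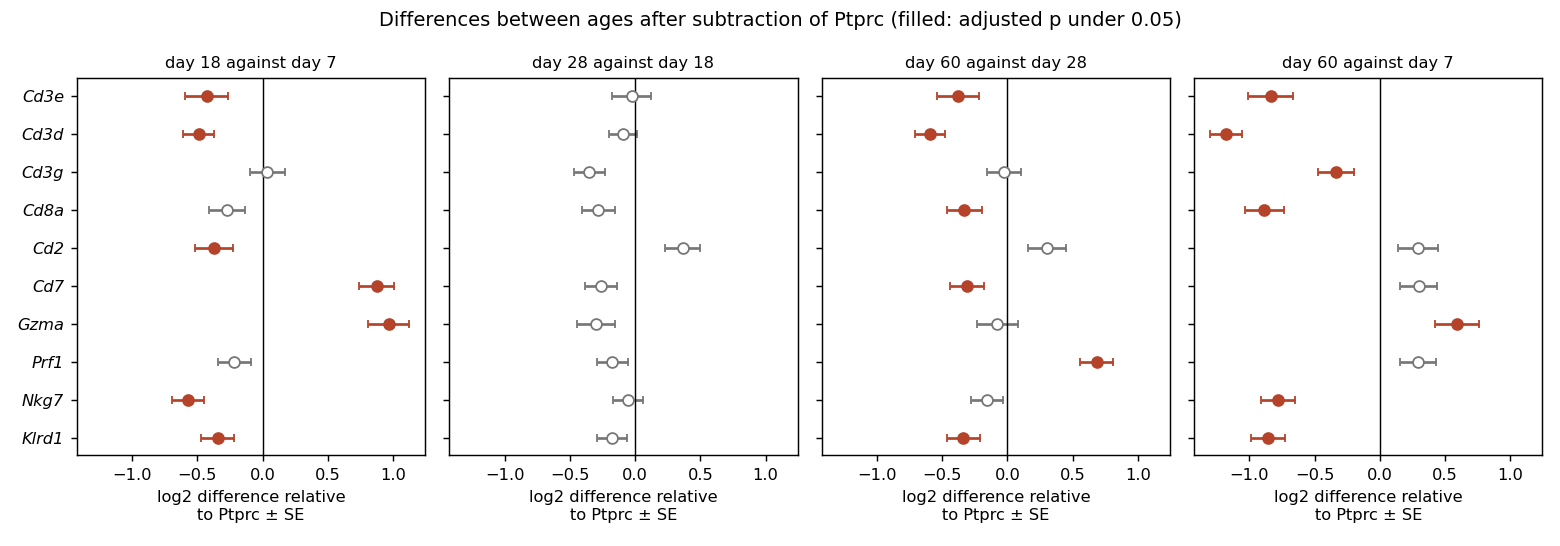
Log2 difference between ages (horizontal axis, ± SE) of the 10 lymphocyte genes after the signal of Ptprc was subtracted in each array, in 1 panel per comparison. Filled red points passed an adjusted p of 0.05; in the day 18 panel Gzma and Cd7 lie to the right of 0 and 5 genes lie to the left, and in the panel of day 60 against day 28 Prf1 lies to the right.

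Other genes of the T cell receptor, of T cell signalling and of killing moved in the same direction at day 18 in most cases. Of 9 measured T cell receptor and co-receptor genes that are not among the 10, 6 rose and 0 fell at day 18, with a median log2 difference of 0.37. Cd96, an adhesion receptor of T and natural killer cells, rose by 1.75 ± 0.13 (limma adjusted p = 6.6e-08), and Cd247, the zeta chain of the receptor, by 0.76. Trac, Trbc and Trdc, the constant regions of the receptor chains themselves, were not matched to a cluster that carries 1 symbol and are not analysed here. Between day 28 and day 60 4 of the 9 rose and 1 fell, with Cd6 higher by 0.75 ± 0.11 (limma adjusted p = 0.00021) and Cd4 by 0.69 ± 0.11 (limma adjusted p = 0.000503). Cd4 marks helper T cells, and in rats macrophages carry it as well. Between day 18 and day 28 0 rose and 1, Cd96, fell.

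Of 15 T cell signalling and transcription genes 9 rose and 2 fell at day 18, with a median of 0.39. Runx3, a transcription factor of CD8 T cells, rose by 0.98 ± 0.10 (limma adjusted p = 2.45e-06), while Tcf7 fell by 1.07 and Bcl11b by 0.47. Both of these T cell factors are also made by other cell types, and the cells behind the rises of this list were not told apart either. Skap1, an adaptor of T cell adhesion, rose at day 18 and again at day 28, by 0.88 and 1.30. At the step from day 18 to day 28, 0 of the 10 lymphocyte genes were called higher. Between day 28 and day 60 3 of the 15 rose and 0 fell.

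Of 13 cytotoxic effector genes 11 rose and 0 fell at day 18, with a median of 0.69, and Ccl5 and Gzmm did not pass. Means at or under the background level were found for 4 of the 13 at day 7 and for 3 at day 18. The sizes of those rises are uncertain. Gzmf and Gzmc, granzyme genes of rodents, rose by 1.92 ± 0.32 (limma adjusted p = 0.000224) and 1.80 ± 0.16 (limma adjusted p = 3.96e-07). Gzmf averaged 4.51 at day 7, under the background level, so the size of its rise is uncertain. Granzyme genes resemble each other, and signal shared between them was not separated. Between day 28 and day 60 4 of the 13 rose and 1, Gzmf, fell by 1.22 ± 0.32 (limma adjusted p = 0.0121). Ccl5, a chemokine that activated T cells release, rose by 0.94 ± 0.14 at that step (limma adjusted p = 0.000286), and Srgn, serglycin, the proteoglycan that holds granzymes in granules and that mast and other cells also make, by 1.07. Of 16 natural killer receptor genes 10 rose and 0 fell at day 18, with a median of 0.51. Cd226, an activating receptor, rose by 1.39 ± 0.16 (limma adjusted p = 6.09e-06), a size that is uncertain because its day 7 mean of 4.14 was under the background level, and at day 7 12 of the 16 had means at or under the background level. Slamf7, which natural killer and plasma cells carry, rose by 1.38 at day 18 and by 1.44 at day 60 against day 28.

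Of 12 homing and tissue residence genes 6 rose and 3 fell at day 18, with a median of 0.38. Cxcr6, a chemokine receptor of tissue T cells, rose by 1.17 ± 0.22 (limma adjusted p = 0.000646) and Cd69, which retains T cells in tissue, by 0.85 ± 0.15 (limma adjusted p = 0.000367). Both had day 7 means under the background level (4.83 and 4.42), so the sizes are uncertain. The integrin genes Itga4 and Itga1 fell by 0.84 and 0.73. Of 9 regulatory T cell genes 2 rose and 1 fell at day 18. Il2ra, the high-affinity interleukin 2 receptor chain, rose at every step, by 0.83 to day 18, by 0.65 to day 28 and by 1.01 to day 60, and Il10, a cytokine that macrophages also make, fell at day 18 to 3.81, under the background level, against 5.36 at day 7, so the size of its fall is uncertain. The day 7 mean of Il2ra, 4.64, was under that level too. Foxp3, the transcription factor that defines regulatory T cells, differed by 0.17 at day 18 and did not pass.

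**Figure D4:**
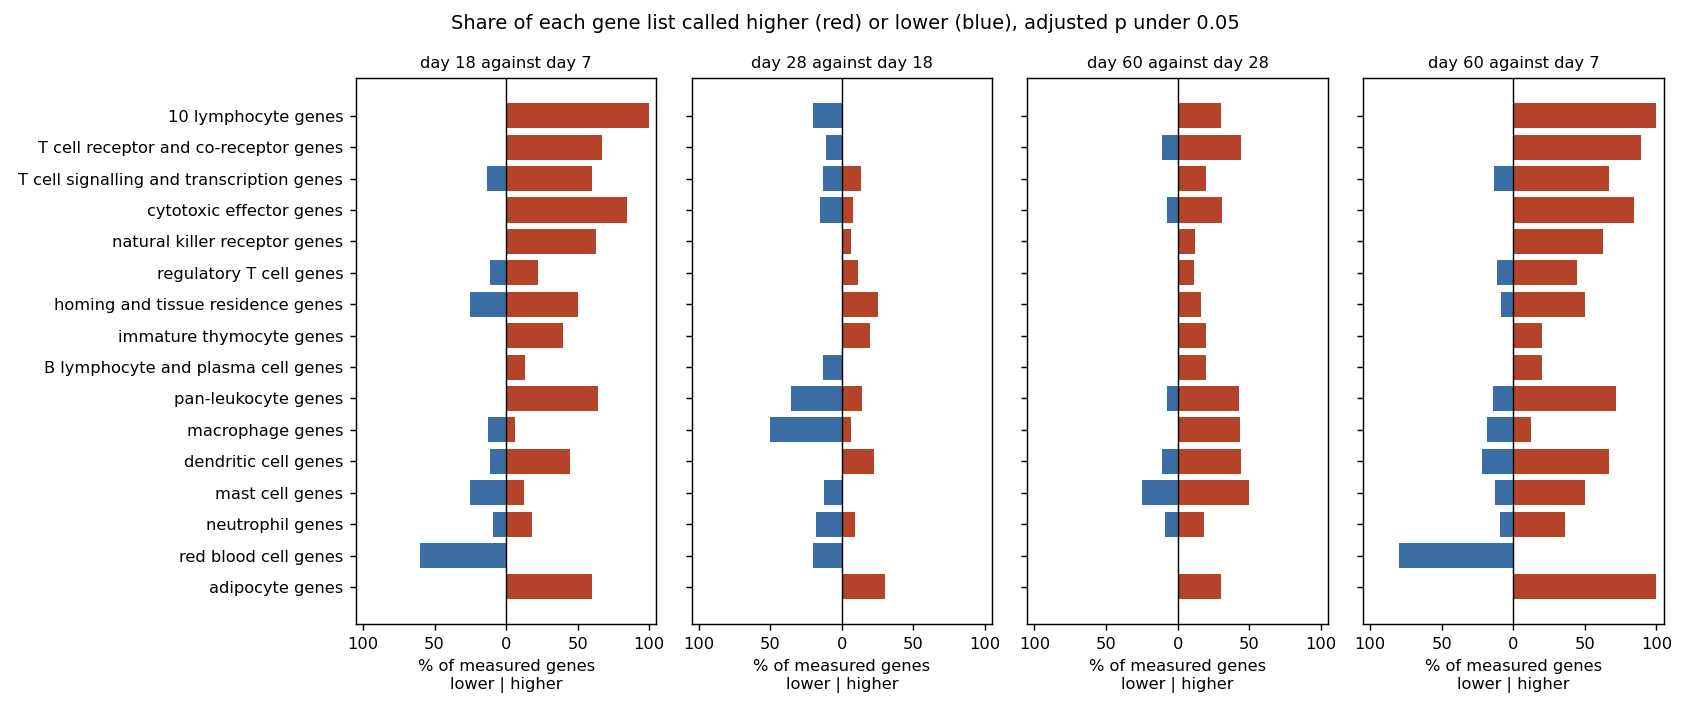
Share of the measured genes of each list that were called higher (red, to the right) or lower (blue, to the left) at an adjusted p of 0.05, in percent, in 1 panel per comparison. At day 18 against day 7 all 10 lymphocyte genes lie to the right, with 11 of 13 cytotoxic effector genes, 1 of 16 macrophage genes and 2 of 15 B lymphocyte genes called higher.

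Markers of other cell types were read beside these results, and their part in them was not tested. Of 15 B lymphocyte and plasma cell genes 2 rose and 0 fell at day 18, and 7 of the 15 had means at or under the background level at each age. Blnk rose by 1.90 and Fcrla by 0.29. Of the defining B cell genes, Cd79a had differences that did not pass at any step and Ms4a1 stayed under the background level. Of 5 immature thymocyte genes 2 rose and 0 fell at day 18, and of the genes that define that stage Rag1, Rag2 and Dntt were under the background level at every age. Ptcra averaged 4.96 at day 18 and 4.97 at day 28, just above that level, and was under it at day 7 and at day 60. Of 16 macrophage genes 1 rose and 2 fell at day 18 (median 0.08), 1 rose and 8 fell at day 28 (median -0.31), and 7 rose and 0 fell at day 60 against day 28 (median 0.33). The mean log2 signal of that list ran from 7.48 to 7.58 in the day 18 pools and from 7.50 to 7.60 in the day 7 pools.

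Of 14 pan-leukocyte genes 9 rose and 0 fell at day 18, with a median of 0.50, 2 rose and 5 fell at day 28, and 6 rose and 1 fell at day 60 against day 28. Cd52, the member with the largest rise (3.66 ± 0.14 at day 18, limma adjusted p = 8.42e-11), is also a secretory product of the epididymal epithelium, so it is no measure of leukocytes in this organ. Of 9 dendritic cell genes 4 rose and 1 fell at day 18. Of 8 mast cell genes 1 rose and 2 fell, and of 11 neutrophil genes 2 rose and 1 fell. Of 5 red blood cell genes 0 rose and 3 fell at day 18, among them the haemoglobin genes Hbb-b1 by 0.96 ± 0.19 (limma adjusted p = 0.000767) and Hba-a1 by 0.67 ± 0.13 (limma adjusted p = 0.000816). Of 10 adipocyte genes 6 rose and 0 fell at day 18, and all 10 were higher at day 60 than at day 7. Their mean log2 signal ran from 5.83 to 6.63 in the day 18 pools and from 5.40 to 5.68 in the day 7 pools.

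The genes whose pattern over the 14 pools was most like the mean of the 10 (each scaled to its own mean and SD) were, among 9078 other genes at or above the median level, RT1-Ba, Cd96, Laptm5, Selplg, Galnt9, Tapbp, Plaat3, Rnaset2, Gzmc and Gsn, with Pearson's r of 0.973 for the first and 0.969 for the last. The 14 pools fall into 4 ages, so r mainly describes the order of the ages. RT1-Ba, a class II antigen-presenting gene, had means of 5.96, 7.77, 7.49 and 7.92 at day 7, 18, 28 and 60. Tapbp, of class I peptide loading, had means of 9.04, 9.65, 9.51 and 9.76 at the same ages. Galnt9, a glycosyltransferase gene, had means of 5.98, 9.36, 8.29 and 9.31. It differed by 3.38 ± 0.17 between day 18 and day 7 (limma adjusted p = 1.74e-09), by -1.07 ± 0.16 between day 28 and day 18 (limma adjusted p = 0.000185) and by 1.02 ± 0.17 between day 60 and day 28 (limma adjusted p = 0.000622).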

How the data were processed

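Total RNA from frozen epididymides was DNase-treated and turned into amplified, biotin-labelled cDNA, per the labels' protocols. The deposited values are log2 signals per transcript cluster, made by the authors with RMA and the Transcriptome Analysis Console, per the submitters' processing notes; versions, settings and genome build are not given in the sources used here. The table holds 36685 clusters in 14 arrays; no 2 arrays are identical. Of the clusters 18511 had 1 gene symbol, 575 several and 17599 were not listed; 18394 matched RefSeq by gene identifier. The cluster with the highest mean was kept per gene (291 genes had several), which gave 18166 genes with no filter on low signal.

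The model had a mean for each age and used every array (limma 3.58.1, lmFit and eBayes, run under R 4.3.3). Differences were tested two-sided and adjusted by Benjamini-Hochberg over all genes, threshold 0.05. The fit was tested on simulated data. Depth has no counterpart on arrays; the number of pools limits precision. The 10 genes, the 16 other lists and the rules were chosen with earlier results of these data known. Named list genes are the 2 largest called rises and falls of a list and comparison; others named where a list is described, and the promoter motifs, were chosen after their values were seen. Promoters are from RefSeq (GRCr8). Replicate numbers did not pair the pools: the deviations of same-numbered pools correlated at -0.14 to 0.046. Alternatives were quantile normalization, centring, a level filter, an intensity trend, the compared ages alone, the replicate block, weighted arrays, averaged clusters per gene, testing every cluster, and leaving out each pool.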

Additional observations from a re-analysis of the deposited data

How the results depend on the processing

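All 10 lymphocyte genes were called higher at day 18 against day 7 under every alternative run, except that the filter at the median level of all genes kept 5 of them, all 5 called. Under that filter the number called higher was 5 for day 60 against day 7 and 1 for day 60 against day 28, since fewer genes were tested. The number called lower at day 28 against day 18 was 1 with quantile normalization and 0 with every cluster of the table, and leaving out 1 pool gave 0 to 3. Leaving out 1 pool gave 10 in every fit for day 18 against day 7, 2 to 3 called higher for day 60 against day 28 and 9 to 10 for day 60 against day 7. Relative to Cd53 in place of Ptprc 2 of the 10 genes were called higher for day 60 against day 28 and 4 for day 60 against day 7, against 3.9% and 5.43% of all genes. Relative to Laptm5 these counts were 2 and 5, against 5.89% and 7.38%, and 1 (Cd2) for day 28 against day 18, when 23.7% of all genes were called higher. The cause was not tested. The calls that single pools ended are given with their genes above. Other settings ended the Cd3d call for day 60 against day 7 in 4 of 8 (adjusted p up to 0.0730). The Cd3g call for day 60 against day 28 ended in 4 of 8 (up to 0.0927). For day 28 against day 18 the Cd3g call ended in 2 of 8 (up to 0.0642). The level filter left Cd3d and Cd3g untested. The Cd8a call for day 28 against day 18 ended in 2 of 9 (up to 0.0633). The difference of Cd7 at day 28 passed in 4 of 9. No called difference changed sign.

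With the replicate number as a block all 10 genes were called higher for day 18 and for day 60 against day 7. For day 28 against day 18, 0 were called higher and 2 lower, and for day 60 against day 28, 2 were called higher. Calls over all genes, higher and lower together, were 6492 for day 18 against day 7, against 6929 without the block. They were 4201 against 4491 for day 28 against day 18 and 3928 against 4550 for day 60 against day 28. For day 60 against day 7 they were 8750 against 8946. The pools share only a number: 3 of 14 correlated best with a pool of their own number. Centring each array on its median moved the share of higher genes among all called from 42.3% to 31.7% for day 28 against day 18 and from 55.2% to 71.7% for day 60 against day 28. Signal near background limits Cd3d and Cd3g, and at day 7 also Cd2, Gzma and Klrd1.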
